A study of Mus musculus with 28 samples.

Results

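The genes described here are the cyclins, the cyclin-dependent kinases (CDKs) with their inhibitors and activators, the E2F and retinoblastoma proteins, and a set of mitosis genes, as measured in mouse CD4+ T cells before and after stimulation through the T cell receptor. The list of 42 genes was made by function. Of these, 41 were found with a probe set that the platform annotation pairs with a single gene symbol, among 17097 genes tested in all. The phosphatase gene Cdc25a was not found in that way and was not analysed here. Where a gene had several probe sets, the brightest over 26 arrays stood for it. The members were divided by function into 11 G1 genes (D and E cyclins, CDK inhibitors, E2Fs), 5 genes of the step from G1 into S phase (Cdk2, Cdk4, Cdk6, Rb1, Rbl1) and 25 genes of G2 and mitosis, called G2/M genes below.

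RNA came from total CD4+ T cells of the spleen of female mice aged 12 weeks, of 3 strains: C57BL/6, which served as wild type, B6.Sle1b, which carries the Sle1b lupus susceptibility interval on the C57BL/6 background, and Sle1b.BACSlamf6-H1, which is B6.Sle1b with an added bacterial artificial chromosome named for the H1 form of Slamf6. The promoter that drives the added gene was not given in the sources used here. Cells of each strain were either unstimulated or kept for 4 h or 24 h on wells coated with antibody to CD3 at 0.1 µg/ml. The labels give the unstimulated cells no time in culture, and no group was labelled as kept for 4 h or 24 h without the antibody. In any change from unstimulated cells, time in culture and stimulation therefore cannot be told apart. Each of the 9 strain-by-time groups held 3 arrays titled biological, except C57BL/6 at 24 h with 2, and 2 further arrays of that group were titled technical and entered no main comparison. Whether replicates are different mice is not stated in the labels. The p-values therefore cover the spread among these samples only, and that spread may be technical.

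A resting T cell holds its G1 cyclins low and its CDK inhibitors high. D cyclins with Cdk4 or Cdk6, then E cyclins with Cdk2, phosphorylate the retinoblastoma proteins and so release E2F transcription factors, which switch on genes of S phase. Genes of G2 and mitosis are known to be held down in resting cells by a repressor complex that contains Rbl1 or its relative Rbl2 and to be raised later in the cycle by complexes of MuvB, B-Myb and FoxM1. Resting T cells leave this state after stimulation of the T cell receptor, grow for about a day and then divide.

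All values below are log2 of the deposited RMA intensity, and a difference is given as the mean of the 3 strains' own differences ± its standard error from 1 limma fit of the 26 arrays. A gene was called where its Benjamini-Hochberg adjusted p over all 17097 genes was under 0.05. Background, read from non-specific control probe sets, lay between 2.76 and 3.21, and 33 of the 41 genes lay above it on all 26 arrays and 8 on some of them. Group means of the defining genes of these cells were 7.60 to 8.04 for Cd3e and 5.43 to 6.30 for Cd4. Summed intensity was 5546 to 8205 for 7 T cell markers, 33.0 to 58.6 for the 2 CD8 markers and 229 to 672 for 9 B cell markers, of which 2 were never above background in unstimulated C57BL/6 cells. In these bulk samples, fewer cells of a type and less RNA per cell cannot be told apart. One array stood apart in the G2/M genes: the B6.Sle1b unstimulated replicate 1 had a G2/M mean of 5.53, where the 8 other unstimulated arrays lay between 4.47 and 5.02, and strain differences that rest on it are given with and without it. Arrays also differed in brightness, with a 75th percentile of intensity from 34.2 to 53.3. The 4 dimmest, at 34.2 to 35.6, were C57BL/6 unstimulated replicate 2, B6.Sle1b unstimulated replicate 3 and 24 h replicate 3, and Sle1b.BACSlamf6-H1 4 h replicate 2.

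Few of the 41 genes had moved at 4 h, more of them down than up, and most had risen by 24 h. At 4 h 3 of 41 were called higher (Ccnd2, Rbl1, Cenpe) and 8 lower (Ccne1, Ccne2, Cdkn1a, Cdkn1b, E2f2, Cdk2, Cdc25b, Cenpa), where 18.2% of all genes tested were called in either direction, 8.15% higher and 10.1% lower. At 24 h 31 were called higher and 5 lower, against 40.4% of all genes in either direction, 22.9% higher and 17.4% lower. The median difference of the 41 genes was -0.01 at 4 h and 1.34 at 24 h, where that of all genes was 0.02 and 0.06. The 5 genes called lower at 24 h were Cdkn1a, Cdkn1b, Rb1, Cdc25b and Cenpa, and the 5 not called were Ccnd1, Cdkn2c, Ccnb2, Cdc25c and Kif23. From 4 h to 24 h 31 rose and 3 fell, against 34.6% of all genes called, 20.5% higher and 14.1% lower. Without the dimmest array of each group of 3, the counts were 3 higher and 10 lower at 4 h and 32 higher and 5 lower at 24 h. The 4 h and 24 h differences share the unstimulated arrays.

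**Figure D1:**
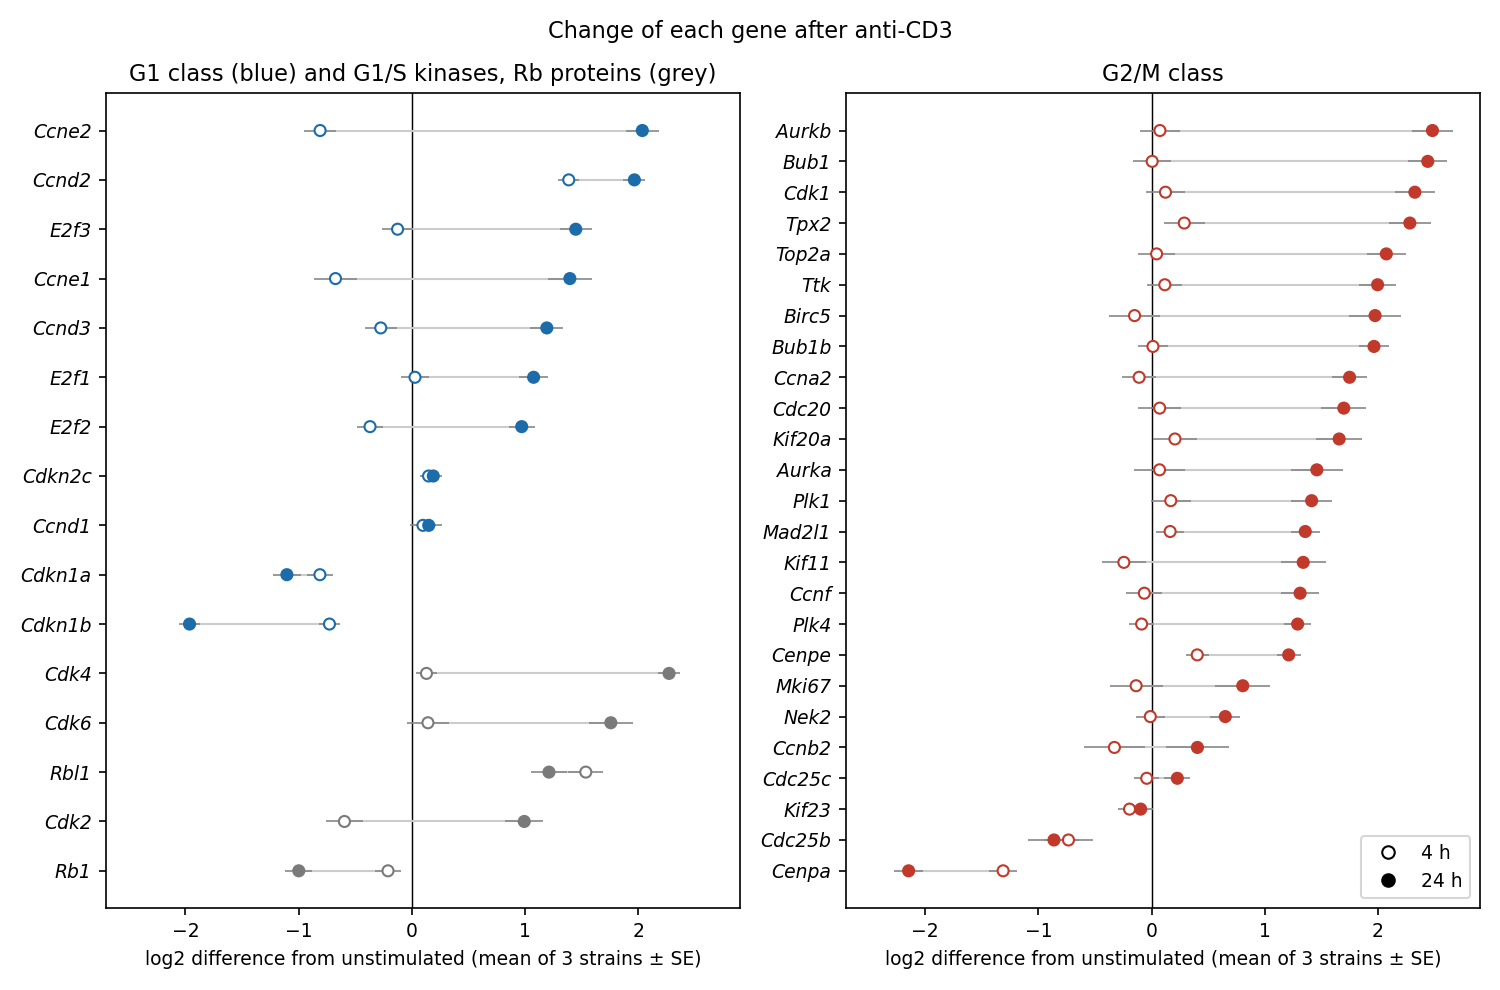
Log2 difference of each gene from unstimulated cells at 4 h (open circles) and 24 h (filled circles), mean of the 3 strains with its standard error as a bar; blue marks G1 genes, grey the G1/S kinases and retinoblastoma proteins, red G2/M genes. Most red open circles lie near 0 and most red filled circles between 1 and 2.5, while the filled circles of Cdkn1a, Cdkn1b, Rb1, Cdc25b and Cenpa lie left of 0.

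The D cyclins differed from each other. Ccnd2 encodes the D cyclin that rose first and furthest. Its unstimulated values were 9.25, 8.75 and 9.60 in C57BL/6, 9.07, 9.41 and 9.32 in B6.Sle1b, and 9.40, 9.21 and 9.10 in Sle1b.BACSlamf6-H1. The 4 h values were 10.50, 10.65 and 10.45 in C57BL/6, 10.79, 10.81 and 10.55 in B6.Sle1b, and 10.77, 10.37 and 10.71 in Sle1b.BACSlamf6-H1. The 24 h values were 11.23 and 11.08 in C57BL/6, 11.30, 11.09 and 11.02 in B6.Sle1b, and 11.38, 11.24 and 11.32 in Sle1b.BACSlamf6-H1. The lowest array at 4 h was above the highest unstimulated one, and the lowest at 24 h was above the highest at 4 h. Ccnd2 was 1.39 ± 0.09 higher at 4 h (2.61-fold, adjusted p = 2.24e-10) and 1.97 ± 0.10 higher at 24 h (3.91-fold, adjusted p = 1.88e-13).

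Ccnd3, the other D cyclin at a clear level here, was read in opposite directions by its 2 probe sets. Its brighter probe set ranged over 6.15 to 7.47 (median 7.26) in unstimulated cells, 6.18 to 7.21 (median 6.88) at 4 h and 8.13 to 8.63 (median 8.31) at 24 h. Only the 24 h arrays stood clear of the others. The difference was -0.27 ± 0.14 at 4 h (adjusted p = 0.215) and 1.19 ± 0.15 at 24 h (adjusted p = 3.84e-07). The dimmer probe set fell, by 1.24 at 4 h and by 1.47 at 24 h, so the rise of Ccnd3 belongs to 1 probe set, and with the mean of both it was -0.14 at 24 h (adjusted p = 0.447). Ccnd1, the D cyclin usually missing from lymphocytes, stayed close to background, at 3.25 to 3.98 in unstimulated cells and 3.49 to 4.04 at 24 h, with a 24 h difference of 0.15 ± 0.12 (adjusted p = 0.352).

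Both E cyclins, the partners of Cdk2 at the entry into S phase, fell at 4 h before they rose at 24 h. Ccne2 values in unstimulated cells were 4.05, 4.08 and 4.19 in C57BL/6, 5.34, 4.14 and 4.86 in B6.Sle1b, and 3.99, 4.06 and 4.05 in Sle1b.BACSlamf6-H1. After 4 h, the arrays gave 3.40, 3.07 and 3.12 in C57BL/6, 3.99, 3.06 and 3.73 in B6.Sle1b, and 3.49, 3.53 and 4.09 in Sle1b.BACSlamf6-H1. After 24 h, the arrays gave 6.71 and 6.30 in C57BL/6, 6.33, 6.14 and 5.79 in B6.Sle1b, and 6.38, 6.37 and 6.56 in Sle1b.BACSlamf6-H1. Every array at 24 h was above every earlier array, whereas the 4 h and unstimulated arrays overlapped, and 2 of the 3 unstimulated B6.Sle1b arrays were above all other unstimulated ones. Ccne2 fell by 0.81 ± 0.14 at 4 h (adjusted p = 0.000183) and was 2.04 ± 0.15 higher at 24 h (4.1-fold, adjusted p = 9.9e-11). From 4 h to 24 h it rose by 2.85 ± 0.15 (7.2-fold), the largest such rise among the 41 genes. Ccne1 ranged over 3.62 to 5.64 (median 4.78) unstimulated, 3.65 to 4.84 (median 3.96) at 4 h and 5.88 to 6.45 (median 6.06) at 24 h. It fell by 0.67 ± 0.19 at 4 h (adjusted p = 0.0121) and was 1.40 ± 0.19 higher at 24 h (adjusted p = 2.46e-06).

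The 3 activator E2Fs, which drive genes of S phase, were called higher at 24 h by their brightest probe sets. E2f3 ranged over 3.09 to 4.44 (median 4.15) in unstimulated cells and 5.16 to 6.04 (median 5.53) at 24 h, with no overlap, a rise of 1.45 ± 0.14 (adjusted p = 1.28e-08). E2f1 rose by 1.08 ± 0.13 and E2f2 by 0.97 ± 0.12. At 4 h E2f1 differed by 0.03 ± 0.12 and E2f3 by -0.13 ± 0.14, both uncalled. E2f2 fell by 0.37 ± 0.11 at 4 h (adjusted p = 0.0216), a call that was lost without C57BL/6 unstimulated replicate 3 (adjusted p = 0.0534), B6.Sle1b unstimulated replicate 1 (0.0542) or Sle1b.BACSlamf6-H1 unstimulated replicate 2 (0.0559). Its dimmer probe set fell more at 4 h, by 0.98 (limma p adjusted over all probe sets 0.000164). At 24 h that probe set differed by 0.39 and was not called (0.089). The dimmer probe sets of E2f1 and E2f3 rose at 24 h, by 1.10 and 0.44.

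The 2 CDK inhibitors of the CIP/KIP family fell at both times. Cdkn1b encodes p27, which holds cyclin-CDK complexes inactive in resting T cells. Its unstimulated values were 9.79, 9.78 and 10.04 in C57BL/6, 9.79, 9.97 and 9.65 in B6.Sle1b, and 9.73, 10 and 9.74 in Sle1b.BACSlamf6-H1. At 4 h they were 9.28, 8.87 and 9.19 in C57BL/6, 9.24, 9.21 and 8.97 in B6.Sle1b, and 9.27, 8.84 and 9.08 in Sle1b.BACSlamf6-H1. At 24 h they were 8.29 and 7.87 in C57BL/6, 7.43, 7.88 and 7.71 in B6.Sle1b, and 7.67, 7.98 and 7.90 in Sle1b.BACSlamf6-H1. The 3 times formed 3 separate bands in all strains, each below the one before. Cdkn1b fell by 0.73 ± 0.09 at 4 h (adjusted p = 2.15e-06) and by 1.96 ± 0.09 at 24 h (3.9-fold, adjusted p = 8.92e-14), and its dimmer probe set fell too, by 1.09 at 4 h and 2.27 at 24 h.

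Cdkn1a, which encodes p21, ranged over 6.28 to 7.22 (median 6.99) in unstimulated cells, 5.75 to 6.50 (median 6.08) at 4 h and 5.51 to 6.36 (median 5.72) at 24 h. It fell by 0.81 ± 0.12 at 4 h (adjusted p = 2.13e-05) and by 1.10 ± 0.12 at 24 h (adjusted p = 1.03e-07), so most of its fall was already present at 4 h. C57BL/6 unstimulated replicate 2, at 6.28, overlapped the stimulated arrays. Cdkn2c, which encodes the INK4 inhibitor p18, was close to level, at 5.72 to 6.22 (median 6.01) unstimulated and 5.93 to 6.50 (median 6.10) at 24 h, a difference of 0.19 ± 0.08 (adjusted p = 0.0635) that came under the threshold when C57BL/6 unstimulated replicate 2, Sle1b.BACSlamf6-H1 unstimulated replicate 3 or 4 h replicate 2, or replicate 2 of any strain at 24 h was left out (adjusted p from 0.0311 to 0.049).

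Among the genes of the step from G1 into S, the D cyclin partners Cdk4 and Cdk6 rose at 24 h only. Cdk4 values in unstimulated cells were 7.30, 6.84 and 7.0 in C57BL/6, 7.56, 6.98 and 6.80 in B6.Sle1b, and 7.02, 7.13 and 7.14 in Sle1b.BACSlamf6-H1. The 4 h values were 7.41, 7.54 and 7.15 in C57BL/6, 7.35, 7.31 and 6.96 in B6.Sle1b, and 7.13, 7.02 and 7.06 in Sle1b.BACSlamf6-H1. The 24 h values were 9.36 and 9.39 in C57BL/6, 9.49, 9.23 and 9.29 in B6.Sle1b, and 9.46, 9.28 and 9.35 in Sle1b.BACSlamf6-H1. Arrays at 4 h lay within the unstimulated range, and all 24 h arrays were above both. The difference was 0.13 ± 0.09 at 4 h (adjusted p = 0.426) and 2.27 ± 0.10 at 24 h (4.83-fold, adjusted p = 1.35e-14), and all 3 Cdk4 probe sets rose. Cdk6 was 0.14 ± 0.19 at 4 h and rose by 1.76 ± 0.20 at 24 h. Cdk2, the E cyclin partner, followed its cyclins: it fell by 0.60 ± 0.16 at 4 h (adjusted p = 0.0111) and was 0.99 ± 0.17 higher at 24 h (adjusted p = 3.71e-05).

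The 2 retinoblastoma family members went opposite ways at 24 h by their brightest probe sets. Rbl1 encodes p107, a repressor of E2F targets and itself a known E2F target. Its unstimulated values were 7.03, 5.97 and 7.59 in C57BL/6, 7.12, 7.19 and 6.77 in B6.Sle1b, and 7.54, 7.51 and 7.08 in Sle1b.BACSlamf6-H1. After 4 h, the arrays gave 8.6, 8.46 and 8.93 in C57BL/6, 8.62, 8.54 and 8.73 in B6.Sle1b, and 8.84, 8.14 and 8.78 in Sle1b.BACSlamf6-H1. After 24 h, the arrays gave 8.23 and 8.39 in C57BL/6, 7.98, 8.36 and 8.25 in B6.Sle1b, and 8.35, 8.37 and 8.47 in Sle1b.BACSlamf6-H1. All stimulated arrays were above all unstimulated ones, and 4 h and 24 h overlapped. The rise was 1.54 ± 0.15 at 4 h (2.9-fold, adjusted p = 1.17e-07) and 1.21 ± 0.16 at 24 h (adjusted p = 1.32e-06), the largest 4 h rise of the 41 genes. The dimmer Rbl1 probe set fell instead, by 0.59 at 4 h and 0.51 at 24 h, and with the mean of both the 24 h difference was 0.35 (adjusted p = 0.0787). Rb1, the founding member, ranged over 7.60 to 8.73 (median 8.42) unstimulated, 7.77 to 8.36 (median 8.06) at 4 h and 6.96 to 7.56 (median 7.29) at 24 h, with a 4 h difference of -0.21 ± 0.12 (adjusted p = 0.259) that passed in 5 of the alternatives, and it fell by 1.0 ± 0.12 at 24 h (2-fold, adjusted p = 3.03e-07). Its second probe set was not above background on any array.

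**Figure D2:**
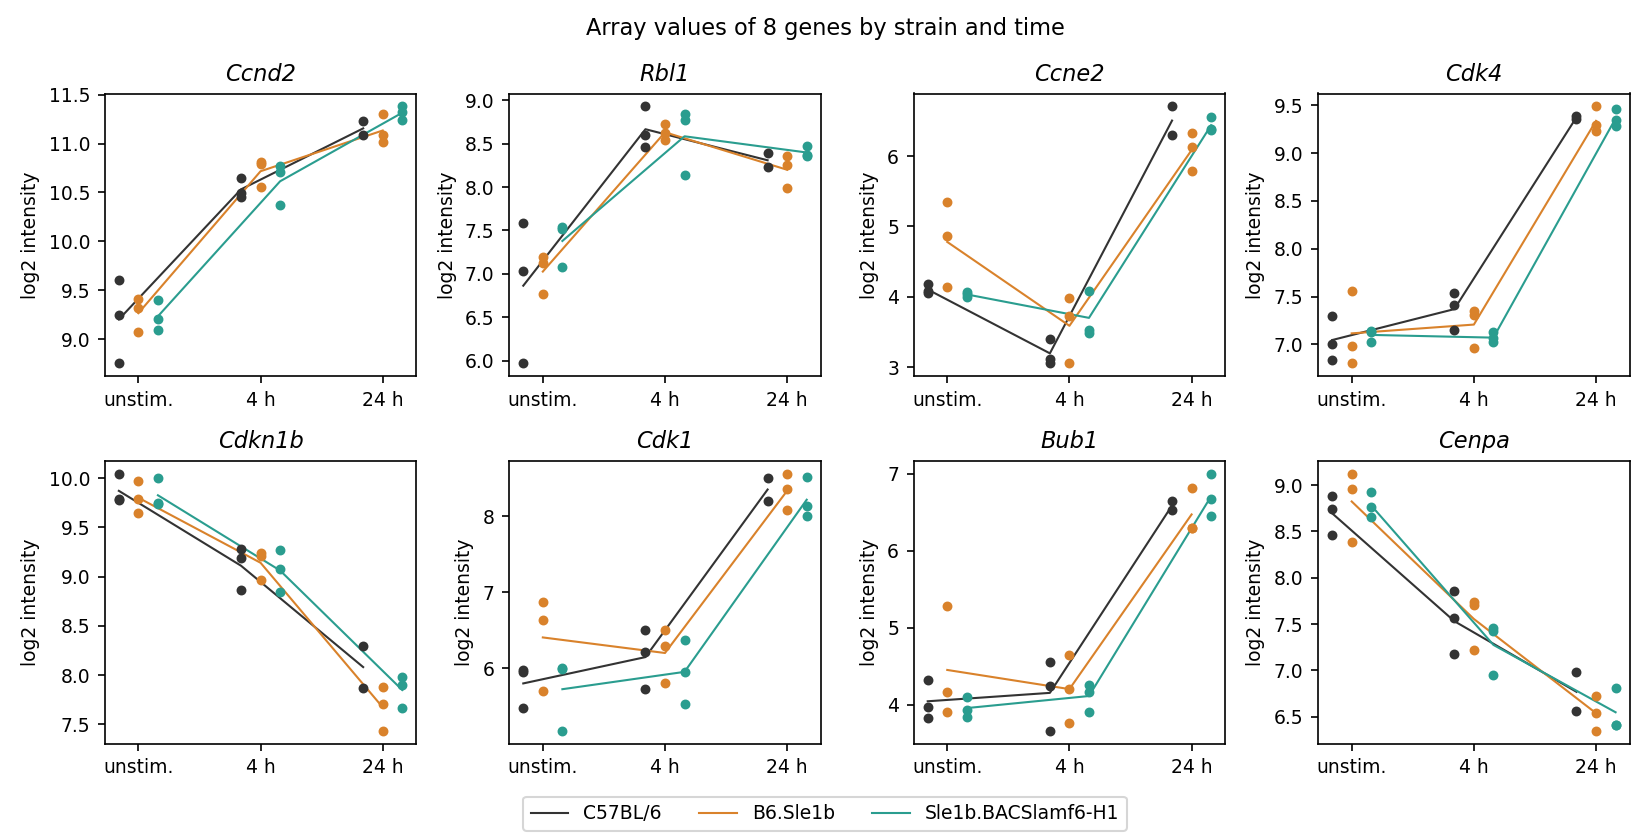
Log2 intensity of 8 genes on each of the 26 biological arrays, by time and strain (points are arrays, lines join group means). Ccnd2 and Rbl1 were up at 4 h, Ccne2 dipped before it rose, Cdk4, Cdk1 and Bub1 rose only at 24 h, and Cdkn1b and Cenpa fell at each time.

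The G2/M genes share sequence features that the list was not built on. RefSeq promoters (250 bases before to 50 after the start, build GRCm38.p6) were matched for 32 of the 41 genes, with 37 promoters in all and 1 for each of 20 G2/M genes. In cell cycle promoters a cell cycle genes homology region (CHR) near the start, beside CCAAT boxes, is the known binding site of the MuvB complexes. TTTGAA or TTCGAA on either strand stood in 15 of 20 G2/M promoters (75%), 2 of 13 G1 promoters (15.4%), 0 of 4 promoters of the G1/S genes and 19.2% of all 32851 promoters of the table. CCAAT on either strand stood in 17 of 20 G2/M promoters (85%), 46.2% of G1 promoters and 37.4% of all. Both together stood in 15 of 20 G2/M promoters and 7.52% of all. E2F-like words (TTCCCGC as well as TTCGCGC, then TTGCCGC and lastly TTGGCGC, on either strand) stood in 3 of 20 G2/M, 3 of 13 G1 and 2 of 4 G1/S promoters and in 9.57% of all. ATTGG is the reverse of the CCAAT box and can share letters with TTGGCGC. A match is a description of the letters and not a binding site.

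The 120 bases before the start are shown for 4 G2/M genes that rose at 24 h with both words in this window (Cdk1, Top2a, Cdc20, Kif11), for Cenpa, which fell, and for Rbl1, which rose at 4 h and has an E2F-like word. Sequences run 5′ to 3′ in the direction of the gene, from RefSeq GRCm38.p6, with the CHR, CCAAT box and E2F-like words of either strand in capitals (TTCAAA is TTTGAA on the other strand).
Cdk1 (chr10:69352913-69353032, minus strand): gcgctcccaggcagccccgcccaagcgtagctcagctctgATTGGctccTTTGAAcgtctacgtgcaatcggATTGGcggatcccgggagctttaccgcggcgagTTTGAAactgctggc
Top2a (chr11:99024190-99024309, minus strand): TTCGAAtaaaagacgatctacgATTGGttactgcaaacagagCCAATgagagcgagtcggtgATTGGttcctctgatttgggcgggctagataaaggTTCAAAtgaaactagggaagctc
Cdc20 (chr4:118437344-118437463, minus strand): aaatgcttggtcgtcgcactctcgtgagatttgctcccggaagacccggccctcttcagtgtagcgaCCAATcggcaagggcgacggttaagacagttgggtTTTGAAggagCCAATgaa
Kif11 (chr19:37376262-37376381, plus strand): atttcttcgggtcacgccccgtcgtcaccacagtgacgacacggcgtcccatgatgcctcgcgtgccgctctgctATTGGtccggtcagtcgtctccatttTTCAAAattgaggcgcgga
Cenpa (chr5:30666766-30666885, plus strand): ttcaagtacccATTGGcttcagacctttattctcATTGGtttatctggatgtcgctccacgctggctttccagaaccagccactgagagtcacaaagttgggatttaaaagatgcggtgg
Rbl1 (chr2:157204535-157204654, minus strand): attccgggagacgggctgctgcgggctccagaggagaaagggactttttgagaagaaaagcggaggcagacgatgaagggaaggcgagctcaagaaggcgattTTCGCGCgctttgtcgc
In Cdk1, Top2a, Cdc20 and Kif11 a CHR word has its first base at -15, -23, -18 and -19 from the start. Cenpa has CCAAT boxes here and its CHR word from base 17 after it. A CHR word only after the start was also found in genes that rose: Bub1, Ttk, Plk1 and Aurka, from bases 15, 8, 31 and 33. Ccnf, which rose too, held both words in this window, with a CHR word from -14, and is not shown.

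The words did not separate the G2/M genes that rose from those that did not. Of the 16 G2/M promoters of genes called higher at 24 h, 11 held both words, and so did all 4 of the others (Ccnb2, Cdc25b, Cenpa, Kif23). Plk4, Cenpe, Mad2l1, Birc5 and Nek2 had no CHR word in the window and were called higher.

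Most G2/M genes were not called at 4 h and rose at 24 h. At 4 h 1 of 25 was called higher and 2 lower (median 0.01), against 8.15% and 10.1% of all genes. At 24 h 20 were called higher and 2 lower (median 1.41), against 22.9% and 17.4%. Cdk1, the kinase that drives entry into mitosis, had unstimulated values of 5.97, 5.95 and 5.47 in C57BL/6, 6.87, 5.71 and 6.64 in B6.Sle1b, and 5.18, 6.00 and 5.99 in Sle1b.BACSlamf6-H1. At 4 h they were 6.22, 6.50 and 5.72 in C57BL/6, 6.50, 5.80 and 6.29 in B6.Sle1b, and 5.53, 5.95 and 6.37 in Sle1b.BACSlamf6-H1. At 24 h they were 8.51 and 8.20 in C57BL/6, 8.56, 8.09 and 8.37 in B6.Sle1b, and 8.13, 8.0 and 8.52 in Sle1b.BACSlamf6-H1. The 4 h and unstimulated arrays overlapped throughout, B6.Sle1b unstimulated replicates 1 and 3 were the highest before 24 h, and all 24 h arrays lay above. The difference was 0.12 ± 0.17 at 4 h (adjusted p = 0.726) and 2.33 ± 0.18 at 24 h (5.02-fold, adjusted p = 2.33e-10).

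The mitotic cyclins did not move alike. Ccna2, the S and G2 partner of Cdk2 and Cdk1, ranged over 5.74 to 7.06 (median 6.24) unstimulated and 7.57 to 8.35 (median 7.93) at 24 h, a rise of 1.75 ± 0.16 (adjusted p = 3.71e-09). Ccnf, the F-box cyclin of a ubiquitin ligase, rose by 1.31 ± 0.16. Ccnb2, a B cyclin, ranged over 4.36 to 6.46 (median 4.93) unstimulated, 4.13 to 5.88 (median 4.66) at 4 h and 5.21 to 5.96 (median 5.43) at 24 h. Its unstimulated arrays covered the whole 24 h range, and the 24 h difference of 0.41 ± 0.28 was not called (adjusted p = 0.284), whereas the rise from 4 h to 24 h was (0.73 ± 0.28, adjusted p = 0.0463).

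Genes of the spindle checkpoint, which delays anaphase until chromosomes are attached, rose at 24 h. Bub1, its kinase at kinetochores, had unstimulated values of 4.33, 3.98 and 3.83 in C57BL/6, 5.28, 3.90 and 4.17 in B6.Sle1b, and 3.93, 4.10 and 3.84 in Sle1b.BACSlamf6-H1. The 4 h values were 4.56, 4.24 and 3.66 in C57BL/6, 4.65, 3.76 and 4.2 in B6.Sle1b, and 3.91, 4.17 and 4.26 in Sle1b.BACSlamf6-H1. The 24 h values were 6.64 and 6.54 in C57BL/6, 6.82, 6.30 and 6.29 in B6.Sle1b, and 6.68, 6.45 and 7.0 in Sle1b.BACSlamf6-H1. Apart from B6.Sle1b unstimulated replicate 1, all arrays before 24 h were at 4.65 or below, and those at 24 h at 6.29 or above. Bub1 rose by 2.44 ± 0.17 at 24 h (5.43-fold, adjusted p = 6.51e-11) and differed by 0.01 ± 0.17 at 4 h. The related kinase gene Bub1b rose by 1.97 ± 0.14, the checkpoint kinase gene Ttk by 2.00 ± 0.16, Mad2l1, which inhibits Cdc20, by 1.36 ± 0.13, and Cdc20, the activator of the anaphase-promoting complex, by 1.70 ± 0.20. None of these 5 was called at 4 h.

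The mitotic kinases and their partners also rose at 24 h. Aurkb, the kinase of the chromosomal passenger complex, had the largest rise of all members, 2.48 ± 0.18 (5.59-fold, adjusted p = 1.02e-10). Its 24 h arrays ranged over 5.41 to 6.41 (median 6.02) and its median in unstimulated cells was 3.52, near background. Birc5 (survivin), a subunit of the same complex, rose by 1.98 ± 0.23. Aurka, the spindle pole kinase, rose by 1.46 ± 0.23 and its activator Tpx2 by 2.28 ± 0.19. Tpx2 arrays ranged over 2.89 to 4.03 (median 3.29) unstimulated and 5.12 to 6.25 (median 5.62) at 24 h. Plk1, a regulator of mitotic entry and exit, rose by 1.41 ± 0.18, Plk4, which starts centriole duplication, by 1.29 ± 0.12, and Nek2, a kinase of centrosome separation, by 0.65 ± 0.13.

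Motor and chromosome genes completed the class. Top2a, the topoisomerase that untangles sister chromatids, ranged over 6.15 to 7.54 (median 6.6) unstimulated and 8.42 to 9.04 (median 8.65) at 24 h, a rise of 2.07 ± 0.17. Kif11, the motor that pushes spindle poles apart, rose by 1.34 ± 0.20 and Kif20a, a motor of cytokinesis, by 1.66 ± 0.21. Cenpe, a kinetochore motor, was the only G2/M gene called higher at 4 h, by 0.40 ± 0.10 (adjusted p = 0.00551), and rose further to 1.21 ± 0.10 at 24 h. Mki67, which encodes the proliferation marker Ki-67, rose less, by 0.81 ± 0.24 (adjusted p = 0.00972). Its arrays ranged over 5.96 to 8.05 (median 6.98) unstimulated and 7.70 to 8.21 (median 7.76) at 24 h, so both times overlapped.

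Cenpa went against its class. It encodes the histone H3 variant of centromeres. Its unstimulated values were 8.89, 8.46 and 8.74 in C57BL/6, 8.96, 9.12 and 8.39 in B6.Sle1b, and 8.76, 8.92 and 8.65 in Sle1b.BACSlamf6-H1. After 4 h, the arrays gave 7.86, 7.56 and 7.17 in C57BL/6, 7.73, 7.71 and 7.22 in B6.Sle1b, and 7.46, 6.95 and 7.42 in Sle1b.BACSlamf6-H1. After 24 h, the arrays gave 6.98 and 6.56 in C57BL/6, 6.73, 6.54 and 6.35 in B6.Sle1b, and 6.42, 6.42 and 6.81 in Sle1b.BACSlamf6-H1. All unstimulated arrays were above all stimulated ones, and 1 of the 24 h arrays, C57BL/6 replicate 1, reached into the 4 h range. Cenpa fell by 1.31 ± 0.12 at 4 h (2.48-fold, adjusted p = 3.44e-08) and by 2.15 ± 0.13 at 24 h (4.43-fold, adjusted p = 3.29e-12), the largest fall of the 41 genes at both times. Its other probe set fell as well, by 1.38 and 2.04.

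Apart from Ccnb2 and Cenpa, 3 G2/M genes were not called higher at 24 h. Cdc25b, a phosphatase that activates Cdk1, ranged over 5.03 to 6.93 (median 6.49) unstimulated and 5.20 to 5.95 (median 5.40) at 24 h. It fell by 0.73 ± 0.22 at 4 h (adjusted p = 0.019) and by 0.86 ± 0.23 at 24 h (adjusted p = 0.00322), with overlapping arrays, and at 4 h its adjusted p was 0.05 without C57BL/6 unstimulated replicate 3. The related phosphatase gene Cdc25c, at 2.67 to 3.44 (median 3.06) at 24 h, and Kif23, a motor of the central spindle, at 2.47 to 2.86 (median 2.66), lay near background at every time. Their 24 h differences were 0.23 ± 0.12 and -0.10 ± 0.11. Cdc25c passed at 24 h without C57BL/6 unstimulated replicate 2 (0.28, adjusted p = 0.0496) or B6.Sle1b 24 h replicate 2 (0.29, adjusted p = 0.0438). Kif23 passed as lower at 4 h without B6.Sle1b unstimulated replicate 2 (-0.28, adjusted p = 0.0395).

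By share, more G1 than G2/M genes were called at 4 h. At 4 h 6 of 11 G1 genes were called (1 higher, 5 lower, median -0.27) and 3 of 25 G2/M genes (median 0.01), against 18.2% of all genes. At 24 h 9 of 11 G1 genes were called (7 higher, 2 lower, median 1.08) and 22 of 25 G2/M genes (20 higher, 2 lower, median 1.41), against 40.4%. The pattern of no call at 4 h with a rise from 4 h to 24 h was that of 20 of 25 G2/M genes and 3 of 11 G1 genes (Ccnd3, E2f1, E2f3). Ccnd3 was called lower at 4 h in some alternatives. A fall at 4 h followed by a rise was seen in Ccne1, Ccne2 and E2f2 of the G1 genes, in Cdk2, and in no G2/M gene. The share of all genes with either pattern was not counted. From 4 h to 24 h, 20.5% of all genes were called higher. No test of the classes against each other was run, since the members were chosen.

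Per array, the mean of the 25 G2/M genes ranged over 4.47 to 5.53 in unstimulated cells (median 4.81), 4.44 to 5.19 at 4 h (median 4.77) and 5.84 to 6.46 at 24 h (median 6.01). The mean of the 11 G1 genes ranged over 5.48 to 6.09, 5.58 to 5.87 and 6.41 to 6.76. In both classes all 24 h arrays lay above all earlier ones. Across the 9 group means, 20 of the 25 G2/M genes followed the class mean, which includes them, with Pearson r from 0.928 to 0.997, while Ccnb2 (0.83), Cdc25c (0.87), Kif23 (0.05), Cdc25b (-0.44) and Cenpa (-0.73) did not reach 0.9. These r describe 9 points dominated by the step at 24 h.

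**Figure D3:**
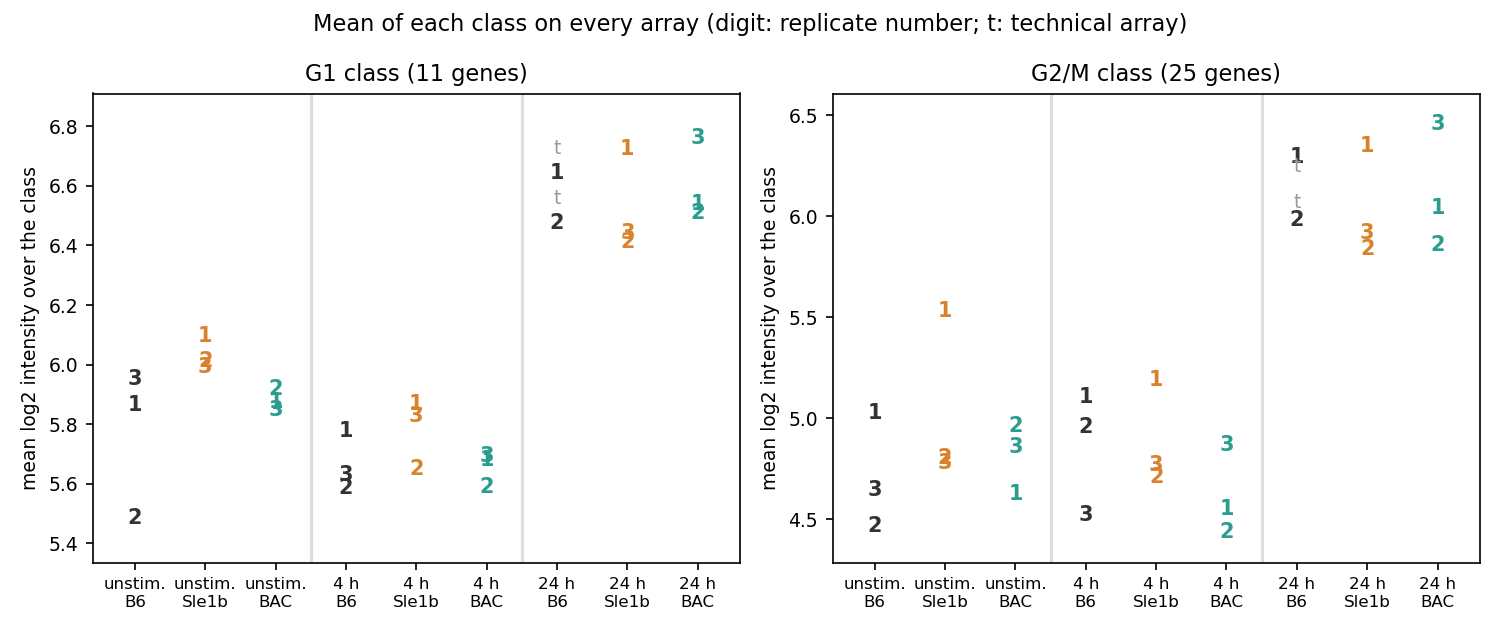
Mean log2 intensity of the 11 G1 genes (left) and the 25 G2/M genes (right) on each array, by time and strain (B6 is C57BL/6, BAC is Sle1b.BACSlamf6-H1); digits are replicate numbers and t marks the 2 technical arrays. All 24 h arrays lie above the earlier ones, and B6.Sle1b unstimulated replicate 1 is the highest G2/M array before 24 h at 5.53.

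Markers of some other cells moved with time as well. The summed intensity of 3 of 4 plasma cell markers (Jchain, Xbp1, Prdm1) was 3769 to 8101 in unstimulated cells and 1411 to 2848 at 24 h. Xbp1 and Prdm1 are also known in T cells. Jchain fell most, from log2 group means of 11.73, 12.29 and 12.29 to 8.46, 9.87 and 9.72 (C57BL/6, B6.Sle1b, Sle1b.BACSlamf6-H1). Prdm1 did not follow it, at 4.19, 4.66 and 4.56 unstimulated and 4.96, 4.59 and 5.09 at 24 h. The sum of 4 of 6 erythroid markers, mostly Hba-a1, was 864 to 3914 and 224 to 1815. Their part in the changes of the cell cycle genes was not tested. The summed CD8 markers were 41.7 to 58.6 in unstimulated cells and 33.8 to 42.8 at 24 h, and those of the 7 T cell markers 7400 to 8205 and 5546 to 6729.

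Other genes of the pathway were taken from 2 lists made by function. Of 22 other G1 regulators tested, 2 were called higher and 4 lower at 4 h, where 18.2% of all genes were called, and 9 higher and 6 lower at 24 h (median 0.13), where 40.4% were. Tfdp1, the E2F dimer partner, rose most at 24 h (2.31 ± 0.09), followed by Cks1b (1.94 ± 0.12), a cofactor of p27 degradation, the repressor E2F gene E2f8 (1.60 ± 0.24) and E2f6 (1.47 ± 0.13). The falls were led by Ccng2, a cyclin linked to cell cycle arrest (-1.97 ± 0.07), Rbl2, which encodes the quiescence protein p130 (-1.30 ± 0.22), Cables1 (-1.22 ± 0.20) and Ccndbp1 (-0.92 ± 0.07). At 4 h Ccng1 (0.69 ± 0.08) and Ccnh (0.38 ± 0.10) were higher, and Cdkn2d, an INK4 inhibitor (-0.95 ± 0.11), Mnat1 (-0.95 ± 0.09), Ccng2 (-0.86 ± 0.07) and Rbl2 (-0.60 ± 0.21) lower.

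Of 75 other G2 and mitosis genes tested, 3 were called higher and 6 lower at 4 h, a smaller share than the 18.2% of all genes, and 59 higher and 5 lower at 24 h (median 0.87), against 40.4%. The largest rises were Cenpk, a kinetochore subunit (2.91 ± 0.21), Pbk, a mitotic kinase (2.47 ± 0.17), Esco2, a cohesin acetyltransferase (2.36 ± 0.18), and Cdca5, which encodes sororin (2.23 ± 0.23). The largest falls were Cenpl, another kinetochore subunit (-1.70 ± 0.09), Pttg1, which encodes securin (-1.11 ± 0.07), the condensin gene Smc4 (-0.80 ± 0.06) and Hjurp, the loading factor of Cenpa (-0.30 ± 0.11). At 4 h Smc2, the partner of Smc4, rose most (0.73 ± 0.11) and Cenpl fell most (-0.70 ± 0.09). The genes outside these lists whose 9 group means were most like the G2/M mean were Fen1, Bag2, Slc25a39, Zfp771 and Glrx5, with Pearson r of 0.996 to 0.997.

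Within each strain, too, few of the genes were called at 4 h and most had risen by 24 h. The uncalled G2/M genes leaned different ways at 4 h. Of all 25, 18 were above 0 in C57BL/6 (median 0.17), 8 in B6.Sle1b (-0.15) and 11 in Sle1b.BACSlamf6-H1 (-0.12). The medians of all genes were 0.03, -0.01 and 0.04. At 24 h 29 genes were called higher and 4 lower in C57BL/6 (24.3% of all genes called, 15.7% higher and 8.6% lower), 29 and 4 in B6.Sle1b (28.2%, 14.8% and 13.4%), and 30 and 5 in Sle1b.BACSlamf6-H1 (29.1%, 17.2% and 11.9%). Of these, 29 were called higher and 4 lower (Cdkn1a, Cdkn1b, Cenpa, Rb1) in all 3 strains. Nek2 was called higher and Cdc25b lower in 1 strain each. At 4 h 3 were called higher and 4 lower in C57BL/6 (7.04% of all genes, 4.08% higher and 2.97% lower), 2 and 4 in B6.Sle1b (5.69%, 2.57% and 3.12%), and 2 and 5 in Sle1b.BACSlamf6-H1 (10.6%, 4.22% and 6.35%). Ccnd2 and Rbl1 were higher and Cdkn1a, Cdkn1b and Cenpa lower in all 3. From 4 h to 24 h 28 rose and 3 fell in C57BL/6 (18.6% of all genes, 12% and 6.67%), 27 and 3 in B6.Sle1b (24.2%, 13.1% and 11.1%), and 29 and 3 in Sle1b.BACSlamf6-H1 (24.8%, 16.9% and 7.82%), with the 3 reduced to 1 in C57BL/6 without 4 h replicate 1 or 24 h replicate 2 and in Sle1b.BACSlamf6-H1 without 4 h replicate 1 or 3 or 24 h replicate 1. The 4 h lower count in C57BL/6 was 2 without unstimulated replicate 1 or 3 or without 4 h replicate 2 or 3, and that in Sle1b.BACSlamf6-H1 was 3 without unstimulated replicate 1 or 4 h replicate 2.

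The next question was whether the strains differed in these genes. None of the 41 was called in the 9 strain comparisons at a single time, in the 3 over the mean of the times, or in the 6 differences between strains of the 4 h or 24 h response, in the limma fit. At an unadjusted p under 0.05, 3 were higher in B6.Sle1b than C57BL/6 in unstimulated cells (4.14% of all genes in either direction at this threshold), 1 higher at 4 h (3.61%) and 1 lower at 24 h (4.71%). For Sle1b.BACSlamf6-H1 against B6.Sle1b it was 1 higher and 4 lower in unstimulated cells (8.13%), 1 lower at 4 h (3.59%) and 1 higher at 24 h (5.31%). For Sle1b.BACSlamf6-H1 against C57BL/6 it was 2 higher in unstimulated cells (5.66%) and 0 at 4 h (5.77%) and 24 h (2.29%). After adjustment, few genes of the array were called either: 0.123%, 0.0409% and 0.0409% for B6.Sle1b against C57BL/6 at the 3 times, 0.0819%, 0 and 0 for Sle1b.BACSlamf6-H1 against B6.Sle1b, and 0.0585%, 0.0643% and 0.0351% for Sle1b.BACSlamf6-H1 against C57BL/6. The 95% interval of a strain difference at 1 time reached 0.55 to either side in the median of the 41 genes. It was 0.61 against C57BL/6 at 24 h and 0.77 to 0.82 for a response difference. These intervals are of 1 gene and are not adjusted for the number of genes tested. For most of these genes a smaller difference could not be told from 0 with these arrays. Larger ones were not called either, such as 0.76 for Ccne1 in unstimulated B6.Sle1b and 0.79 for Cdc25b in unstimulated Sle1b.BACSlamf6-H1, both against C57BL/6.

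The remaining strain counts were also 0 of 41. Over the mean of the times, 0.333%, 0.0819% and 0.228% of all genes were called in the comparisons of B6.Sle1b with C57BL/6, Sle1b.BACSlamf6-H1 with B6.Sle1b and Sle1b.BACSlamf6-H1 with C57BL/6. Of the members, 2, 4 and 2 had an unadjusted p under 0.05 there, against 5.11%, 6.09% and 6.86% of all genes. Of the 6 response differences, 1 called a gene of the array, the 24 h response of Sle1b.BACSlamf6-H1 against B6.Sle1b (0.00585%). At an unadjusted p under 0.05 they held 0, 1 and 3 members for the 4 h response (2.2%, 5.28% and 3.88% of all genes) and 2, 1 and 0 for the 24 h response (4.8%, 5.11% and 1.84%), in the order B6.Sle1b against C57BL/6, Sle1b.BACSlamf6-H1 against B6.Sle1b, and Sle1b.BACSlamf6-H1 against C57BL/6.

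In unstimulated cells the G2/M genes of B6.Sle1b were mostly above those of C57BL/6, by less without 1 array. Against C57BL/6, 23 of 25 G2/M genes and 9 of 11 G1 genes were above 0, beside 9647 of all 17097 genes. The medians were 0.34 and 0.23, where that of all genes was 0.02. Without B6.Sle1b unstimulated replicate 1 it was 18 of 25 G2/M genes with a median of 0.13 and 8 of 11 G1 genes with 0.19. Without C57BL/6 unstimulated replicate 2, a dim array, 21 of 25 G2/M genes (median 0.30) but only 5 of 11 G1 genes (median -0.00063) were above 0. Sle1b.BACSlamf6-H1 minus B6.Sle1b shares the unstimulated B6.Sle1b arrays. Its G2/M median was -0.23 with 3 of 25 above 0, beside 6978 of all 17097 genes. Without B6.Sle1b unstimulated replicate 1 it was 0.03 with 15 of 25 above 0. That median was -0.35 and -0.39 without B6.Sle1b unstimulated replicate 2 or 3, and -0.37 without Sle1b.BACSlamf6-H1 unstimulated replicate 2. Without Sle1b.BACSlamf6-H1 unstimulated replicate 1 it was -0.16, with 7 of 25 above 0. The G2/M means of the 3 unstimulated B6.Sle1b arrays were 5.53, 4.81 and 4.78. The 24 h response of the G2/M genes in B6.Sle1b, which uses the same arrays, was below that in C57BL/6 in 24 of 25 genes. Among all 17097 genes it was below in 9974. The G2/M median of this difference was -0.44. It was -0.23 without B6.Sle1b unstimulated replicate 1, and likewise without C57BL/6 24 h replicate 1. The 4 h response of B6.Sle1b minus that of C57BL/6 shares the unstimulated arrays as well. It was above 0 in 3 of 25 G2/M genes (median -0.33, all genes -0.05). The comparisons of strains at 4 h use no unstimulated array. In Sle1b.BACSlamf6-H1 minus B6.Sle1b at 4 h, 3 of 25 G2/M genes were above 0, with a median of -0.25 (all genes -0.02). Sle1b.BACSlamf6-H1 minus C57BL/6 had 4 of 25 above 0 (median -0.21, all genes -0.04), and B6.Sle1b minus C57BL/6 12 of 25 (median -0.01). The 4 erythroid markers summed to 1404 to 3846 in unstimulated C57BL/6, 3392 to 3914 in B6.Sle1b and 864 to 2250 in Sle1b.BACSlamf6-H1. Most of this sum was Hba-a1, with log2 group means of 11.33, 11.80 and 10.58 in that order. Slc4a1 went another way and was highest in Sle1b.BACSlamf6-H1 (4.28, 5.04 and 5.13). In the same order, 9 B cell markers summed to 489 to 672, 299 to 445 and 316 to 455, 6 neutrophil markers to 49.6 to 155, 80.9 to 590 and 130 to 785, and 3 plasma cell markers to 3769 to 6182, 5798 to 7767 and 6185 to 8101. The part of these markers in the differences was not tested. The median of all genes in the 24 h response difference of B6.Sle1b against C57BL/6 was -0.05, and -0.12 when each array's median was subtracted.

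Ccne2 had the smallest adjusted p of these comparisons. In unstimulated cells it was 0.68 ± 0.25 higher in B6.Sle1b than in C57BL/6 (adjusted p = 0.888) and -0.75 ± 0.25 in Sle1b.BACSlamf6-H1 minus B6.Sle1b (adjusted p = 0.418). Its 24 h response was -1.10 ± 0.37 in B6.Sle1b against C57BL/6 (adjusted p = 0.982) and 1.10 ± 0.35 in Sle1b.BACSlamf6-H1 against B6.Sle1b (adjusted p = 0.756). Without B6.Sle1b unstimulated replicate 1 these 4 values were 0.39, -0.46, -0.81 and 0.82. All of them share the 3 unstimulated B6.Sle1b arrays, at 5.34, 4.14 and 4.86, and none was called. Over all arrays left out in turn the smallest adjusted p was 0.0569, for Sle1b.BACSlamf6-H1 against B6.Sle1b without B6.Sle1b unstimulated replicate 2. The lowest of these B6.Sle1b arrays, 4.14, lay within the range of the unstimulated C57BL/6 arrays.

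Weighting the arrays changed the strain counts. With limma's array weights 24 of the 41 genes passed in unstimulated B6.Sle1b against C57BL/6, 23 of them higher, beside 15.3% of all genes, and 22 between Sle1b.BACSlamf6-H1 and B6.Sle1b, 21 of them lower, beside 23.5% of all genes. These weights had not converged and gave B6.Sle1b unstimulated replicate 1 the largest weight of all arrays, 8.71. With gene-by-gene weights, an alternative added after the data were seen, the counts were 1 (0.79% of all genes) and 9 (6.16%).

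**Figure D4:**
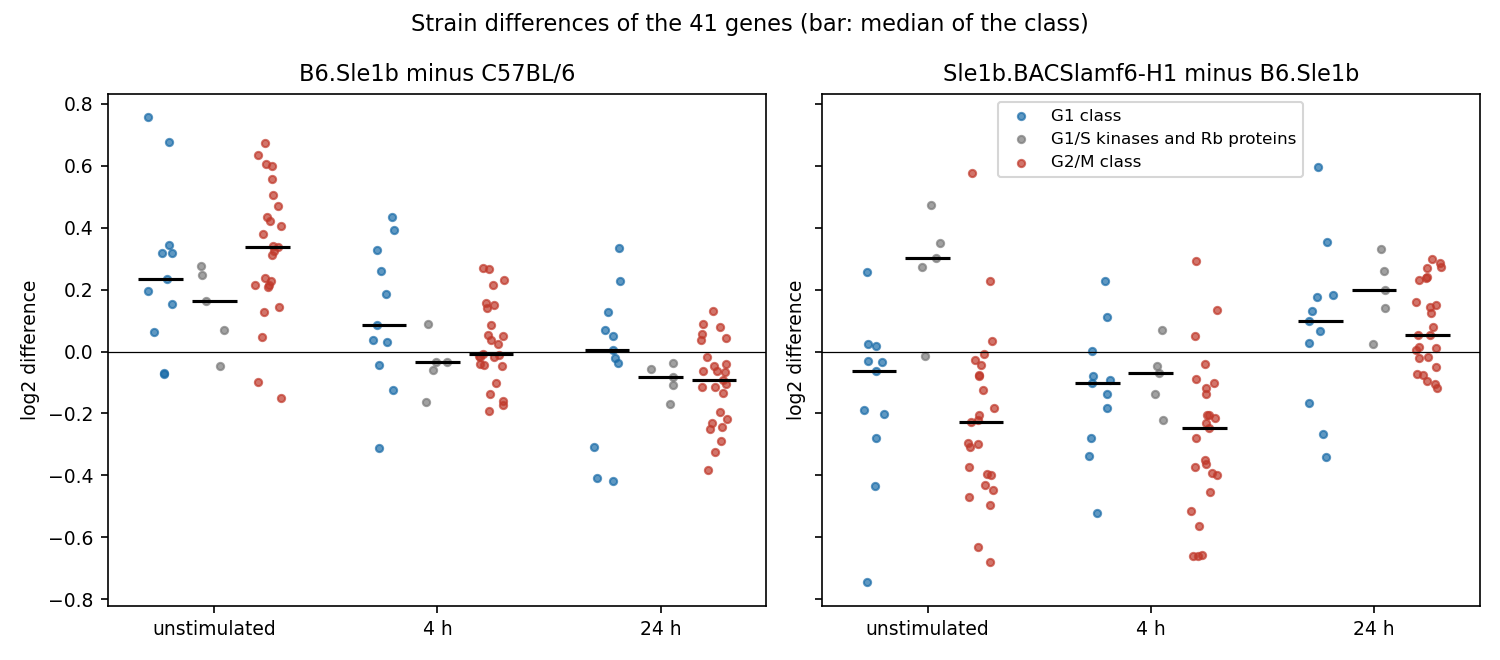
Log2 difference between strains of each of the 41 genes at the 3 times (points, coloured by class; bars are class medians), B6.Sle1b minus C57BL/6 on the left and Sle1b.BACSlamf6-H1 minus B6.Sle1b on the right. In unstimulated cells the G2/M median is 0.34 on the left and -0.23 on the right; both panels use the same B6.Sle1b arrays, and no gene was called in any of these comparisons.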

How the data were processed

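The arrays were Affymetrix HT MG-430 PM arrays of 45141 probe sets. The deposited values are linear intensities that the authors derived by RMA (submitters' processing notes, no version named). Medians still differed between arrays (9.06 to 10.5), and no further scaling was applied. Log2 was taken with no pseudocount and no filter. Of the probe sets, 28898 carry 1 gene symbol in the platform annotation and 551 several, which were not used. limma 3.58.1 (R 4.3.3) fitted 9 group means to 26 arrays, and p-values were adjusted over all genes in each comparison. Values were given for members by a rule on rises and falls in each class, and for up to 4 genes a direction in 2 further lists. Members and lists were chosen with earlier results of these data known. Microarray precision is limited by the number of arrays. Same-numbered arrays of a strain at different times deviated together in B6.Sle1b (9 of 9 pairs over 0.1, correlations 0.17 to 0.70) but not throughout in C57BL/6 (5 of 7 pairs) or Sle1b.BACSlamf6-H1 (3 of 9). The labels do not say what a number marks, and it was a block only in alternatives. Alternatives covered probe set choice, scaling, arrays used, blocks, weights and leaving out each array. The fitting was tested on simulated data.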

Additional observations from a re-analysis of the deposited data

How the results depend on the processing

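Counts below are of the 41 genes. Under 13 other settings and with each of the 26 arrays left out in turn, the counts for the mean of the strains kept within 1.5 times of those reported at 4 h and 24 h: 31 to 33 or, under the mean of each gene's probe sets, 29 higher and 5 lower at 24 h, and 3 higher and 6 to 11 lower at 4 h. The lower counts within single strains, which are small, moved more, and the cause was not tested. With the mean of probe sets, higher counts at 4 h were 1 in each strain, Sle1b.BACSlamf6-H1 had 8 lower at 4 h and 1 lower from 4 h to 24 h, and Ccnd3 turned to -0.14 at 24 h. With only the groups compared in the fit, so fewer arrays, 2 were lower at 4 h in C57BL/6 and 1 in B6.Sle1b, and 5 were lower from 4 h to 24 h in B6.Sle1b. With each array's median subtracted, 2 were lower at 4 h in B6.Sle1b, and 1 was lower from 4 h to 24 h in C57BL/6 and in Sle1b.BACSlamf6-H1. After quantile normalizing again, 5 were lower from 4 h to 24 h in the mean of the strains.

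With array weights, 9 were lower at 4 h in C57BL/6 (27.7% of all genes called) and 19 in B6.Sle1b (26.3%). Strain comparisons, all at 0 without weights, gave 24 (B6.Sle1b against C57BL/6, 15.3%) and 22 (Sle1b.BACSlamf6-H1 against B6.Sle1b, 23.5%) in unstimulated cells, 10 and 2 for the 4 h and 24 h response of B6.Sle1b against C57BL/6 (7.66% and 0.942%), and 11 for the 24 h response of Sle1b.BACSlamf6-H1 against B6.Sle1b (7.38%). With gene-by-gene weights, chosen after seeing the data, 7, 9 and 9 were lower at 4 h in C57BL/6, B6.Sle1b and Sle1b.BACSlamf6-H1 (19.3%, 13.6% and 30.8% of all genes), and 4 higher in the last. B6.Sle1b against C57BL/6 gave 1 in unstimulated cells. Sle1b.BACSlamf6-H1 against B6.Sle1b gave 9 in unstimulated cells, 2 over the mean of the times, 2 for the 4 h response and 1 for the 24 h response, and against C57BL/6 1 at 4 h and 1 over the mean of the times.

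Leaving out 1 array moved the lower count at 4 h to between 2 and 5 in C57BL/6 and between 3 and 6 in Sle1b.BACSlamf6-H1. From 4 h to 24 h the lower count was 1 to 3 in both of these strains, at 1 without C57BL/6 4 h replicate 1 or 24 h replicate 2, and without Sle1b.BACSlamf6-H1 4 h replicate 1 or 3 or 24 h replicate 1. In the mean of the strains it was 3 to 5, with 5 without C57BL/6 unstimulated replicate 2. Every strain and response count stayed at 0 under leaving out 1 array. Ccnb2 passed the threshold at 24 h with array brightness as a covariate (0.60, adjusted p = 0.0373), and Kif23 as lower at 4 h with it (adjusted p = 0.0246) and with the mean of probe sets (0.0448). Ccnd3 and Rb1 passed as lower at 4 h in 5 alternatives each (adjusted p 0.000112 to 0.011 and 0.00405 to 0.0418): the mean of probe sets, both weights, without the dimmest array of each group of 3, and without C57BL/6 unstimulated replicate 2 for Ccnd3 or B6.Sle1b unstimulated replicate 3 for Rb1. E2f3 passed as lower with gene-by-gene weights (0.0275) and Kif11 with array weights (0.0142).

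With the replicate number as a fixed block, 31 were higher and 5 lower at 24 h, and 3 higher and 8 lower at 4 h. With strain and number as a random block, 32 were higher at 24 h, and Cdkn2c passed (0.19, adjusted p = 0.0445). Cdkn2c also passed with the technical arrays (0.0274, or 0.0374 as 1 array), with both weights (0.013 and 0.0214) and without the dimmest arrays (0.0211). In a fit of the 9 B6.Sle1b arrays alone with the number as a block, chosen after seeing the data because that strain's same-numbered arrays all deviated together, 30 were higher and 5 lower at 24 h, and 2 higher and 5 lower at 4 h. None of these blocks moved a count by over 1.5 times. The fit of B6.Sle1b alone did raise the share of the whole array that passed. For the 24 h difference this share was 33.3%, where the main fit gave 28.2% in this strain. For the 4 h difference it was 7.35%, where the main fit gave 5.69%. The limits lie in 3 arrays a group, 2 for C57BL/6 at 24 h, and in the 8 genes not above background on every array. Of these, Cdc25c and Kif23 lay near background at every time. The others came near it only before 24 h and were above 4.5 on all 24 h arrays.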

Other observations

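The 2 technical C57BL/6 arrays at 24 h, which the labels tie to no particular sample, had G2/M means of 6.25 and 6.07 and G1 means of 6.73 and 6.56. Cdk1 was at 8.38 and 8.20 on them, Ccnd2 at 11.34 and 11.14, and Cenpa at 7.0 and 6.85.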
